A study of Rattus norvegicus with 6 samples.

Results

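The genes described here are 52 genes of DNA replication and mitosis, given as a list and found by symbol in a table of estimated reads for 19382 rat genes. All 52 had a row, and all 52 passed the filter on low counts, so each was among the 14959 genes tested. By role, 24 act in S phase or at its start, 22 are grouped as mitotic, and 6 are the D cyclins and the kinases of G1. The mitotic group includes Ccna2, the cyclin of late S phase and G2, and the transcription factors Mybl2 and Foxm1. RNA sequencing was done on rat brain tissue in 6 libraries, 3 of a hypoxia-ischemia (HI) group and 3 of a control group. The HI rats were SD rats that underwent 2.5 h of ischemia and hypoxia at 7 days of age, a model of brain injury in the newborn, and the control rats are labelled only as given a control treatment. The labels state neither the age of the controls, the brain region, the time from injury to sampling, the sex, nor whether each library came from its own animal. The p-values therefore measure the spread between these libraries, which may in part be technical. The series title names the compound echinatin, and no library used here is labelled as treated with it.

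A dividing cell copies its DNA in S phase and separates the copies in mitosis, and the genes for each phase are switched on in turn. E2F factors, held back by RB-family proteins until cyclin-dependent kinases (CDKs) act on them, drive the S-phase genes, while the factors MYBL2 and FOXM1 drive the mitotic genes. In the brain of the newborn rodent the dividing cells include glial precursors, progenitors of the germinal zones, microglia and cells of growing vessels. Most neurons have left the cycle. In bulk tissue, fewer or more cells of a type and less or more RNA per cell cannot be told apart.

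Library totals lay between 13922663 and 14927469 reads, and no member had fewer than 31 reads in any library. Levels are given as CPM, read counts scaled to library size and a TMM factor. The tissue held transcripts of glia and neurons: Gfap of astrocytes averaged 1549 CPM in HI and 142 CPM in control, and Camk2a of excitatory neurons 49.3 CPM in HI and 156 CPM in control. The libraries differed within groups as well. Cortical projection neuron markers summed to between 270.2 and 334 CPM in HI, and to 1657, 1833 and 1079 CPM in controls 1, 2 and 3. Choroid plexus markers summed to 188, 8222 and 15393 CPM in HI 1, 2 and 3, and to 23.1, 2192 and 14.6 CPM in controls 1, 2 and 3. Y-linked transcripts summed to between 101.5 and 110.5 CPM in HI 2, HI 3 and control 3, and to at most 0.227 CPM in the other libraries.

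Replication and mitosis genes stood mostly higher in HI, by amounts that were modest and uneven between the HI libraries. A positive log2 fold change (HI minus control) was found for 49 of the 52 members, against 7967 of all 14959 genes. Its median over the members was 0.58, or 1.49-fold, against 0.04 over all genes. Few members passed the test: Mcm3 and Mki67 rose and Ccne1 fell (adjusted p below 0.05 in the quasi-likelihood test of edgeR). These are 2 of 52 members higher (3.85%), where 6.83% of all tested genes were called higher, and 1 of 52 lower (1.92%), where 7.04% were called lower. The share of calls among the members thus did not exceed that among all genes. The HI libraries lay above all 3 controls for 23 members (44.2%), against 21.5% of all genes, and below them for 1 member, against 20.8% of all genes. An unadjusted p below 0.05 was reached by 27 members (51.9%) and by 36.5% of all genes. A log2 fold change of at least 1 was seen for 3 members, Mcm2, Mcm3 and Aurkb (5.77%), against 12.3% of all genes.

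The number of calls depended on single libraries and on the method. Without HI 1 edgeR called 35 members, all of them higher, with 13.7% of all genes called higher. Without HI 2, HI 3, control 1, control 2 or control 3 edgeR called 0 members, with 13, 15, 17, 15 and 18 members at an unadjusted p below 0.05. In those same omissions 0%, 4.27%, 0%, 0.00653% and 11% of all genes were called, in the same order. DESeq2 on all 6 libraries called 17 members, 16 higher and 1 lower, with 10.9% of all genes called higher and 11.2% lower. With total counts edgeR called 16 members, with upper-quartile scaling 7 and without a filter 1, all of them higher, where 14.4%, 9.67% and 4.44% of all genes were called higher. Total counts also moved the median of all genes to 0.23, and the S-phase and mitotic medians to 0.75 and 0.85. Under limma-voom and under edgeR with a replicate block 0 members were called, 22 and 21 having an unadjusted p below 0.05, where 9.17% and 11.5% of all genes were called.

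**Figure D1:**
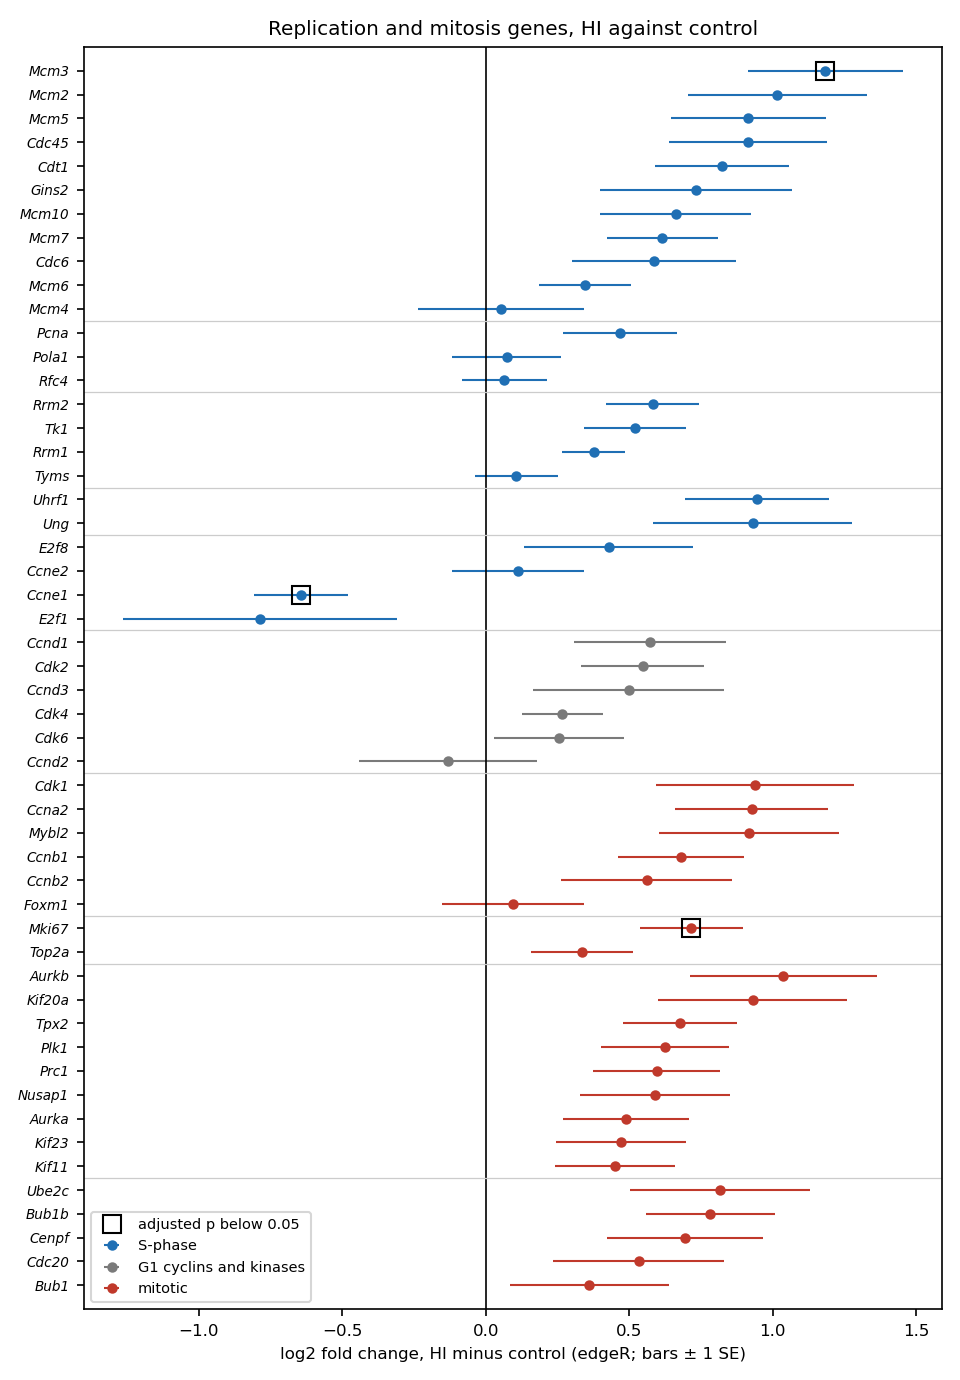
Log2 fold change of each of the 52 members, HI minus control, on the horizontal axis, with genes down the page by role; points are edgeR estimates, bars 1 SE, and colours separate S-phase, G1 and mitotic genes. Open squares mark the 3 members that passed the test, Mcm3 and Mki67 to the right of 0 and Ccne1 to its left; E2f1 and Ccnd2 are the other members left of 0.

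Promoters were searched for the elements that these phases are known for. A window of 300 bases, 250 before and 50 after the annotated start, was found for 38 of the 52 members in a RefSeq table of build GRCr8. Mcm4, Cdc6, Rrm2, E2f1, E2f8, Ccne2, Ccnd1, Ccnd2, Cdk6, Ccna2, Foxm1, Aurkb, Tpx2 and Ube2c had no entry. Both strands were searched for E2F sites (TTTCCCGC, TTTGGCGC, TTTCGCGC or TTTGCCGC). The same was done for the cell cycle homology region or CHR (TTTGAA or TTCGAA), where complexes with MYBL2, FOXM1 or RB-family proteins bind, and for the CCAAT box (CCAAT). Matches may overlap each other. An E2F site stood in 9 of 18 S-phase windows (50%) and in 1 of 17 mitotic windows (5.88%), against 2.25% of all 27457 windows. A CHR stood in 11 of 17 mitotic windows (64.7%) and in 4 of 18 S-phase windows (22.2%), against 19.5% of all windows. CHR and CCAAT box occurred in the same window in 10 of 17 mitotic genes (58.8%), in 3 of 18 S-phase genes (16.7%) and in 7.83% of all windows. The 3 G1 windows, of Ccnd3, Cdk4 and Cdk2, held 0 E2F sites and 0 CHR elements. These are matches of letters and no measure of binding in this tissue.

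Whether the matches bear on the fold changes was not tested. The windows of the 3 called members are printed here, with that of Mcm2, another helicase gene with a log2 fold change of at least 1. That of Cdk1, the mitotic gene whose window also holds an E2F site, is given too. Each window runs 5′ to 3′ from 250 bases before the start to 30 bases after it. E2F, CHR and CCAAT matches of either strand are in capitals.
Mcm3 (GRCr8, chr9:30733717-30733996, minus strand): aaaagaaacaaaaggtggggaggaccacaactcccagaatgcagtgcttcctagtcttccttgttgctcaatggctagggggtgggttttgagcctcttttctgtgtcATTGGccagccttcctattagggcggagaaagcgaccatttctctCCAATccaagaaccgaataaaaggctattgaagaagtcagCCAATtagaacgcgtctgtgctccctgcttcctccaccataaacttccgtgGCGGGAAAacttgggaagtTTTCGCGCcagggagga
Mcm2 (GRCr8, chr4:122918065-122918344, minus strand): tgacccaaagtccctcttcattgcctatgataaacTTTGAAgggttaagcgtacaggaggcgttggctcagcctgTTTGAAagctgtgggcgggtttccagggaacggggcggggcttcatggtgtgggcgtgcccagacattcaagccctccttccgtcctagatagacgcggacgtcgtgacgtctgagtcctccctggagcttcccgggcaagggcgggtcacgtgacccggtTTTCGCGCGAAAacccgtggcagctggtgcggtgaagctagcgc
Ccne1 (GRCr8, chr1:99927880-99928159, minus strand): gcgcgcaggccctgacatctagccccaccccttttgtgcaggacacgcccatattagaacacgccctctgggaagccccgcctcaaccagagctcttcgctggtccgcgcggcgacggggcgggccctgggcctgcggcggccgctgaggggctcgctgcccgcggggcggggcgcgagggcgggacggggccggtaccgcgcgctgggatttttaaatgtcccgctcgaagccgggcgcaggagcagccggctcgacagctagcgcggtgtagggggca
Mki67 (GRCr8, chr1:199952564-199952843, minus strand): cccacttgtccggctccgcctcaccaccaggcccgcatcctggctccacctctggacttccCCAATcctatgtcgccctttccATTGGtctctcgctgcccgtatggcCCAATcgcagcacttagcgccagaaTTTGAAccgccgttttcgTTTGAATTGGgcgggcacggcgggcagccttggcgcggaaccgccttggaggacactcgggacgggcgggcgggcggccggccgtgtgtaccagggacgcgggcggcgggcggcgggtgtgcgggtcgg
Cdk1 (GRCr8, chr20:19265043-19265322, plus strand): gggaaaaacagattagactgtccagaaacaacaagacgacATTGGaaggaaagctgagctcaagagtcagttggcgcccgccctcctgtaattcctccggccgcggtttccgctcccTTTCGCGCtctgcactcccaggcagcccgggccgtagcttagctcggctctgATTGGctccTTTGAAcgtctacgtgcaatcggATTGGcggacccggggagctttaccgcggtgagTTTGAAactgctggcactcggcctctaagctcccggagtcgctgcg

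In the Mcm3 window both E2F matches lie close to the start, 1 beginning 6 bases before it and 1 beginning 14 bases after it, with 3 CCAAT boxes further upstream. Mcm2 has a pair of E2F matches that overlap on opposite strands, beginning 14 and 10 bases before the start, and 2 CHR matches far upstream. Mki67 holds 2 CHR matches and 4 CCAAT boxes, and in Cdk1 matches of all 3 kinds occur together. The window of Ccne1, the member that fell, holds 0 matches, which says nothing of factors acting at that gene.

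**Figure D2:**
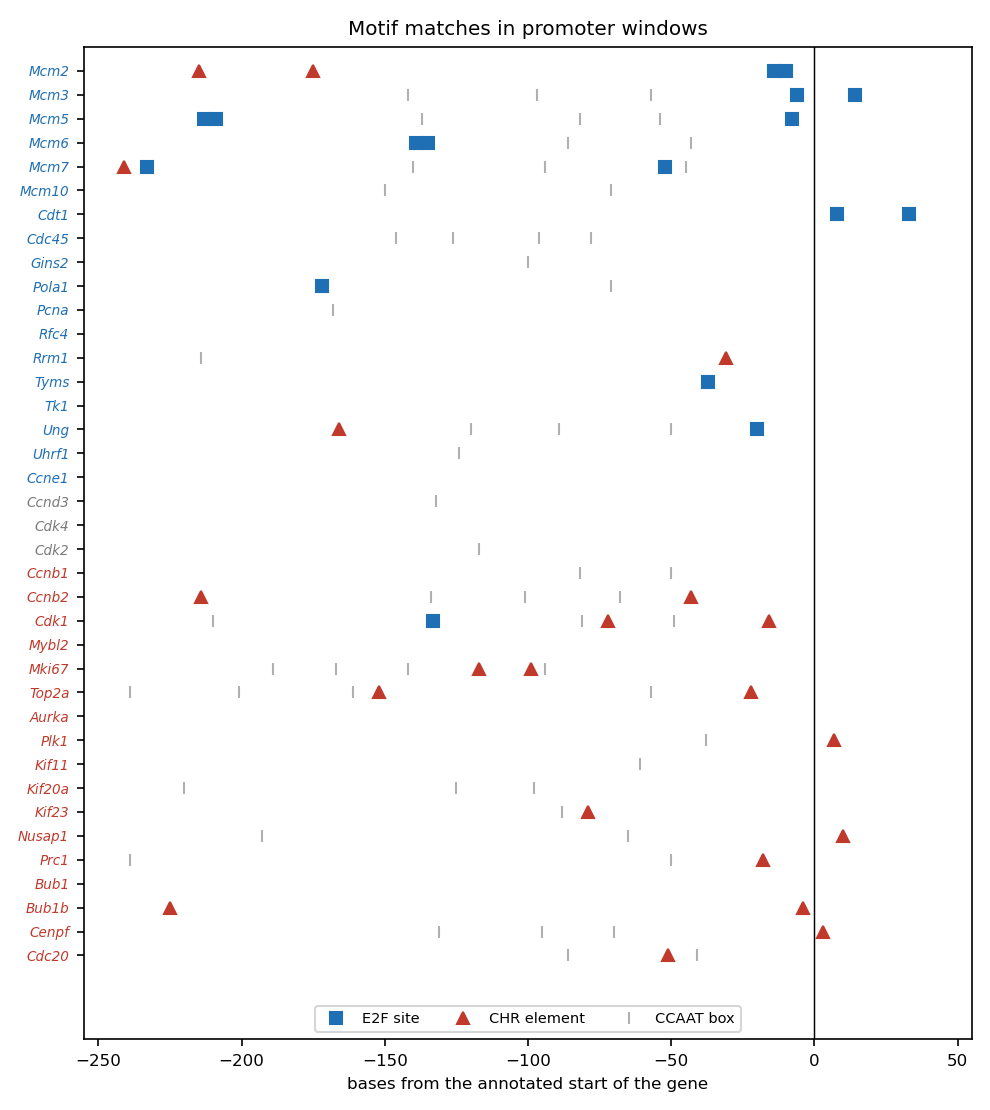
Position of motif matches in the promoter windows of 38 members, in bases from the annotated start, with genes down the page (blue names S-phase, grey names G1, red names mitotic); squares are E2F sites, triangles CHR elements and grey ticks CCAAT boxes, each drawn at its first base. E2F squares fall in 9 of 18 S-phase rows and CHR triangles in 11 of 17 mitotic rows.

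Among the S-phase genes, those of the replicative helicase and its loading had a median log2 fold change of 0.73, with all 11 positive. Of the 11 genes 1 was called higher (9.09%), against 6.83% of all genes. MCM2 to MCM7 form the ring that unwinds DNA, CDC6 and CDT1 load it at origins, and CDC45, GINS2 and MCM10 help to start it. Mcm3 measured 14.6, 24.5 and 29.5 CPM in HI 1, 2 and 3, and 10.8, 9.13 and 10.3 CPM in controls 1, 2 and 3. The groups did not overlap, HI 1 was the nearest to the controls, and the log2 fold change was 1.18 ± 0.27 (SE; edgeR adjusted p = 0.0390). The call was lost under limma-voom (adjusted p = 0.0670), under the replicate block (edgeR adjusted p = 0.0695) and without any library other than HI 1 (edgeR adjusted p from 0.0730 to 0.129). Mcm2 measured 18.9, 35.7 and 45.3 CPM in HI 1, 2 and 3, and 18.0, 15.2 and 16.2 CPM in controls 1, 2 and 3. HI 2 and HI 3 stood far above the controls and HI 1 barely above control 1, and the difference, 1.02 ± 0.31 on the log2 scale, missed the threshold (edgeR adjusted p = 0.0694). Cdt1 measured 8.16, 12.2 and 13.4 CPM in HI 1, 2 and 3, and 6.66, 5.96 and 6.44 CPM in controls 1, 2 and 3. Here too the groups did not overlap, while the difference, 0.82 ± 0.23 in log2, missed the threshold (edgeR adjusted p = 0.0596).

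The products of the MCM ring genes work as a single complex, and their log2 fold changes ranged from 0.05 in Mcm4 to 1.18 in Mcm3. Differences between these genes were not tested. Mcm5 and Mcm7 had log2 fold changes of 0.92 ± 0.27 and 0.62 ± 0.19 and Mcm6 one of 0.35 ± 0.16 (SE), and none of these passed. Mcm4 measured 22.9, 34.8 and 41.7 CPM in HI 1, 2 and 3, and 35.4, 38.7 and 21.9 CPM in controls 1, 2 and 3. Its groups overlapped throughout, control 3 was the lowest of all 6 libraries, and its log2 fold change was 0.05 ± 0.29. Mcm10, Cdc6, Cdc45 and Gins2 had log2 fold changes from 0.59 to 0.91, and 0 of the 4 passed. Gins2 shares reads with similar genes, so its values are uncertain.

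Of the polymerase, clamp and clamp loader genes 0 of 3 passed by edgeR, with 0 at an unadjusted p below 0.05 (36.5% of all genes). Pcna stood apart from Rfc4 and Pola1. Rfc4, a subunit of the complex that loads the clamp, measured 11.7, 11.9 and 13.1 CPM in HI 1, 2 and 3, and 12.3, 10.9 and 11.9 CPM in controls 1, 2 and 3. Pola1, the catalytic subunit of the polymerase that makes primers, had a log2 fold change of 0.07 ± 0.19, close to the 0.06 ± 0.15 of Rfc4. Pcna, the sliding clamp, measured 39.1, 51.3 and 67.4 CPM in HI 1, 2 and 3, and 39.2, 38.5 and 36.4 CPM in controls 1, 2 and 3. HI 1 lay inside the range of the controls, and the log2 fold change, 0.47 ± 0.20, missed the threshold (edgeR adjusted p = 0.142). HI 2 and HI 3 lay above all controls, and without HI 1 Pcna passed (0.64, edgeR adjusted p = 0.0335).

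Genes of nucleotide supply already stood higher in HI 1. Rrm1 and Rrm2 encode the subunits of ribonucleotide reductase, Tyms makes thymidylate and Tk1 salvages thymidine. In all 4 genes HI 1 lay above all 3 controls, as in 34.4% of all genes. Rrm2 measured 30.1, 40.8 and 41.8 CPM in HI 1, 2 and 3, and 23.2, 24.7 and 27.4 CPM in controls 1, 2 and 3 (log2 fold change 0.58 ± 0.16, edgeR adjusted p = 0.0574). Rrm1 measured 73.2, 77.8 and 88.0 CPM in HI 1, 2 and 3, and 66.0, 57.5 and 60.6 CPM in controls 1, 2 and 3 (0.38 ± 0.11, edgeR adjusted p = 0.0637). In Rrm1, Rrm2 and Tk1 (75% of the 4 genes) all HI libraries lay above all 3 controls, against 21.5% of all genes. Yet 0 of the 4 genes passed the test, where 13.9% of all genes were called. Tyms had the opposite order within HI, with 18.9, 17.9 and 14.9 CPM in HI 1, 2 and 3, against 16.3, 15.9 and 15.8 CPM in controls 1, 2 and 3. HI 3 was its lowest library, and its log2 fold change was 0.11 ± 0.14.

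Uhrf1, which guides DNA methylation onto new strands, and Ung, which removes uracil from DNA, had nearly equal log2 fold changes. Uhrf1 measured 15.7, 27.6 and 27.9 CPM in HI 1, 2 and 3, and 13.9, 11.9 and 11.2 CPM in controls 1, 2 and 3 (0.95 ± 0.25, edgeR adjusted p = 0.0525). Ung measured 5.28, 10.7 and 11.6 CPM in HI 1, 2 and 3, and 5.45, 5.30 and 3.74 CPM in controls 1, 2 and 3 (0.93 ± 0.35, edgeR adjusted p = 0.108). The groups did not overlap in Uhrf1, and in Ung HI 1 lay within the controls.

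Among the E cyclins and E2F factors, which set off S phase, 2 of 4 genes had a positive and 2 a negative log2 fold change. Of the 4 genes 1 was called lower (25%), against 7.04% of all genes. Ccne1, the cyclin E that partners Cdk2, fell to 14.8, 17.5 and 12.5 CPM in HI 1, 2 and 3, against 24.1, 21.5 and 24.4 CPM in controls 1, 2 and 3. All 3 HI libraries lay below all 3 controls, with a log2 fold change of -0.64 ± 0.17 (SE; edgeR adjusted p = 0.0492). That call sat at the threshold and was lost without a filter (edgeR adjusted p = 0.0512), with upper-quartile scaling (edgeR adjusted p = 0.0598), with total counts (edgeR adjusted p = 0.0878), under limma-voom (adjusted p = 0.0526), under the replicate block (edgeR adjusted p = 0.0921) and with each library left out (edgeR adjusted p from 0.0603 to 0.141). The other cyclin E gene, Ccne2, had a log2 fold change of 0.11 ± 0.23.

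E2f1, an activator of the S-phase genes, measured 5.42, 10.9 and 13.9 CPM in HI 1, 2 and 3, and 21.6, 22.3 and 8.16 CPM in controls 1, 2 and 3. Controls 1 and 2 were the highest of all 6 libraries and control 3 stood below HI 2 and HI 3, and the log2 fold change, -0.79 ± 0.48, missed the threshold (edgeR adjusted p = 0.277). Among HI 2, HI 3 and control 3, the libraries with Y-linked reads, its log2 fold change was positive, 0.59 (edgeR adjusted p = 0.348). Among HI 1, control 1 and control 2, which lack them, it was -2.03 and passed (edgeR adjusted p = 0.0245). Control 3 was also the lowest control for Emx1, a transcription factor of the developing cortex, with 0.736, 1.48 and 2.18 CPM in HI 1, 2 and 3 and 41.0, 50.6 and 4.27 CPM in controls 1, 2 and 3. The part of that difference between controls in the E2f1 value was not tested. E2f8, a repressor of the same targets, had a log2 fold change of 0.43 ± 0.29 and overlapping groups.

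D cyclins and the kinases of G1, which carry growth signals into the cycle, gave 0 calls among 6 genes by edgeR. Of the 6 genes 1 (16.7%) had an unadjusted p below 0.05, against 36.5% of all genes. Their median log2 fold change was 0.38. Ccnd1 measured 47.5, 81.9 and 101 CPM in HI 1, 2 and 3, and 48.8, 49.0 and 57.1 CPM in controls 1, 2 and 3 (0.57 ± 0.27, edgeR adjusted p = 0.170). Cdk2 measured 11.7, 16.1 and 18.1 CPM in HI 1, 2 and 3, and 10.4, 9.13 and 11.9 CPM in controls 1, 2 and 3 (0.55 ± 0.21, edgeR adjusted p = 0.119). In Ccnd1 HI 1 lay below the controls and in Cdk2 among them. Ccnd3, Cdk4 and Cdk6 had log2 fold changes of 0.50, 0.27 and 0.25, and Ccnd2 one of -0.13 ± 0.31, with HI 1 the lowest and HI 3 the highest of all 6 libraries. Without HI 1, Ccnd1 passed (0.82, edgeR adjusted p = 0.0194).

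All 22 mitotic genes had a positive log2 fold change, from 0.10 to 1.04 with a median of 0.65. Of the 22 genes 1 was called higher (4.55%), against 6.83% of all genes. That gene was Mki67, which coats mitotic chromosomes and encodes the proliferation marker Ki-67. It rose to 42.6, 59.9 and 66.3 CPM in HI 1, 2 and 3, against 32.6, 37.2 and 32.9 CPM in controls 1, 2 and 3. The groups did not overlap, and the log2 fold change was 0.72 ± 0.18 (SE; edgeR adjusted p = 0.0471). The call was lost without a filter (edgeR adjusted p = 0.0534), under limma-voom (adjusted p = 0.0632), under the replicate block (edgeR adjusted p = 0.0612) and without any library other than HI 1 (edgeR adjusted p from 0.0958 to 0.149). Top2a, the topoisomerase that untangles chromosomes, measured 38.9, 52.1 and 62.4 CPM in HI 1, 2 and 3, and 40.1, 41.7 and 39.6 CPM in controls 1, 2 and 3. There HI 1 was the lowest of all 6 libraries, and the log2 fold change, 0.34 ± 0.18, missed the threshold (edgeR adjusted p = 0.217).

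Among cyclins of mitosis, their kinase and their transcription factors, 0 of 6 passed by edgeR. Of the 6 genes 4 (66.7%) had an unadjusted p below 0.05, against 36.5% of all genes. Ccna2, the cyclin of late S phase and G2, measured 14.9, 25.3 and 30.7 CPM in HI 1, 2 and 3, and 12.7, 12.4 and 12.1 CPM in controls 1, 2 and 3 (0.93 ± 0.27, edgeR adjusted p = 0.0613). Ccnb1, which with Cdk1 starts mitosis, measured 18.1, 26.3 and 27.7 CPM in HI 1, 2 and 3, and 13.9, 18.0 and 13.1 CPM in controls 1, 2 and 3 (0.68 ± 0.22, edgeR adjusted p = 0.0779). Neither gene had overlapping groups, although HI 1 exceeded control 2 by little in Ccnb1. Cdk1 itself measured 10.5, 19.8 and 27.3 CPM in HI 1, 2 and 3, and 8.63, 11.1 and 10.3 CPM in controls 1, 2 and 3. The transcription factor Mybl2 had a log2 fold change of 0.92 ± 0.31, Ccnb2, with shared reads, one of 0.56 ± 0.30, and Foxm1 one of 0.10 ± 0.25, the smallest of the mitotic genes.

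Spindle and cytokinesis genes had log2 fold changes from 0.45 to 1.04, and 0 of 9 passed by edgeR. Of the 9 genes 5 (55.6%) had an unadjusted p below 0.05, against 36.5% of all genes. Tpx2, which nucleates spindle microtubules and activates Aurka, measured 21.0, 32.8 and 32.2 CPM in HI 1, 2 and 3, and 17.7, 19.3 and 16.8 CPM in controls 1, 2 and 3 (0.68 ± 0.20, edgeR adjusted p = 0.0636). Aurkb, the kinase of the chromosomal passenger complex, measured 11.9, 12.7 and 25.3 CPM in HI 1, 2 and 3, and 9.24, 7.95 and 7.11 CPM in controls 1, 2 and 3 (1.04 ± 0.33, edgeR adjusted p = 0.0744). In Aurkb the excess was mostly that of HI 3, whereas in Tpx2 HI 2 and HI 3 were level. The polo kinase Plk1, the kinesins Kif11, Kif20a and Kif23, the bundling proteins Prc1 and Nusap1, and Aurka had log2 fold changes of 0.62, 0.45, 0.93, 0.47, 0.60, 0.59 and 0.49.

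In the group of the kinetochore, the spindle checkpoint and the anaphase-promoting complex 0 of 5 genes passed by edgeR. Of the 5 genes 3 (60%) had an unadjusted p below 0.05, against 36.5% of all genes. Bub1b, the checkpoint protein BubR1, measured 12.1, 16.8 and 20.2 CPM in HI 1, 2 and 3, and 10.2, 9.87 and 8.46 CPM in controls 1, 2 and 3 (0.78 ± 0.22, edgeR adjusted p = 0.0610). Ube2c, the ubiquitin-conjugating enzyme of the anaphase-promoting complex, measured 6.02, 9.32 and 10.3 CPM in HI 1, 2 and 3, and 3.33, 5.60 and 5.62 CPM in controls 1, 2 and 3 (0.82 ± 0.31, edgeR adjusted p = 0.114). The groups did not overlap in either. Cenpf, of the outer kinetochore, Cdc20, an activator of the anaphase-promoting complex, and the checkpoint kinase Bub1 had log2 fold changes of 0.69, 0.53 and 0.36, and HI 1 lay within or below the controls in each.

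**Figure D3:**
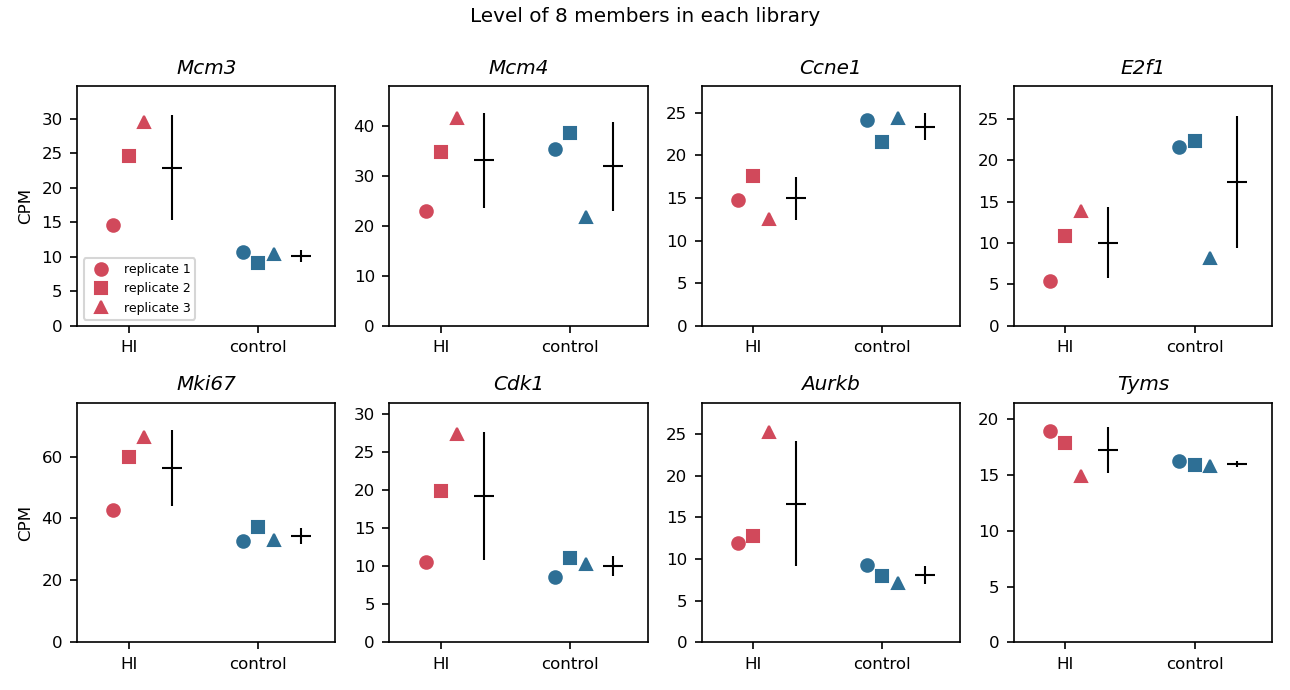
CPM of 8 members in each library, HI at the left and control at the right of each panel; marker shapes give the replicate number and the bar beside each group its mean ± SD (n = 3). HI lies above control without overlap in Mcm3, Mki67 and Aurkb, below it in Ccne1, and the groups overlap in Mcm4, E2f1, Cdk1 and Tyms.

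S-phase and mitotic genes differed from the controls by similar amounts. The S-phase median was 0.55 and the mitotic median 0.65, a difference of -0.10 on the log2 scale. Per library, S-phase members lay, by their median log2 CPM relative to the control mean, at 0.16, 0.67 and 0.78 in HI 1, 2 and 3, and at 0.10, -0.09 and 0.003 in controls 1, 2 and 3. The same median over mitotic members stood at 0.11, 0.68 and 0.96 in HI 1, 2 and 3, and at 0.009, 0.09 and -0.08 in controls 1, 2 and 3. The S-phase median minus the mitotic median was 0.051, -0.013 and -0.180 in HI 1, 2 and 3, and 0.093, -0.185 and 0.086 in controls 1, 2 and 3, so the HI values lay within the range of the controls, that of HI 3 close to its lower end. The spread within the S-phase genes was wider, from -0.79 to 1.18 against 0.10 to 1.04 in the mitotic genes, and the negative values among them were those of E2f1 and Ccne1. HI 2 and HI 3 both lay above all 3 controls for 17 of 24 S-phase genes (70.8%), for 21 of 22 mitotic genes (95.5%) and for 32.5% of all genes.

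The HI libraries were unlike each other in these genes. HI 1 was the lowest HI library for 48 of 52 members (92.3%) and HI 3 the highest for 46 (88.5%), against 42.1% and 42.0% of all genes. HI 1 lay above all 3 controls for 25 members (48.1%), against 34.4% of all genes. Summed S-phase CPM was 423, 576 and 646 in HI 1, 2 and 3, and 433, 401 and 394 in controls 1, 2 and 3. Summed mitotic CPM was 331, 494 and 577 in HI 1, 2 and 3, and 306, 326 and 284 in controls 1, 2 and 3. The SD between libraries was larger in HI than in control for 50 members (96.2%), against 60.9% of all genes, and the median coefficient of variation of the members was 26.0% in HI and 9.79% in control. Choroid plexus transcripts were high in HI 2, HI 3 and control 2. Among the controls, control 2 had the middle S-phase sum and the highest mitotic sum, and the part of choroid plexus in the result was not tested.

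HI 2 and HI 3 share Y-linked reads with control 3, and HI 1 lacks them with controls 1 and 2. Among libraries with such reads the S-phase and mitotic medians were 0.74 and 0.93, and among those without them 0.16 and 0.08. Within these sets edgeR called 0 members (4.04% of all genes in either direction) and 1 member (8.94% of all genes in either direction). The 1 member called was E2f1, which was lower. In the same order, 28 and 5 members had an unadjusted p below 0.05. Each of these sets has a lone library on 1 side, so the presence of Y-linked reads and the difference between HI libraries cannot be told apart.

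**Figure D4:**
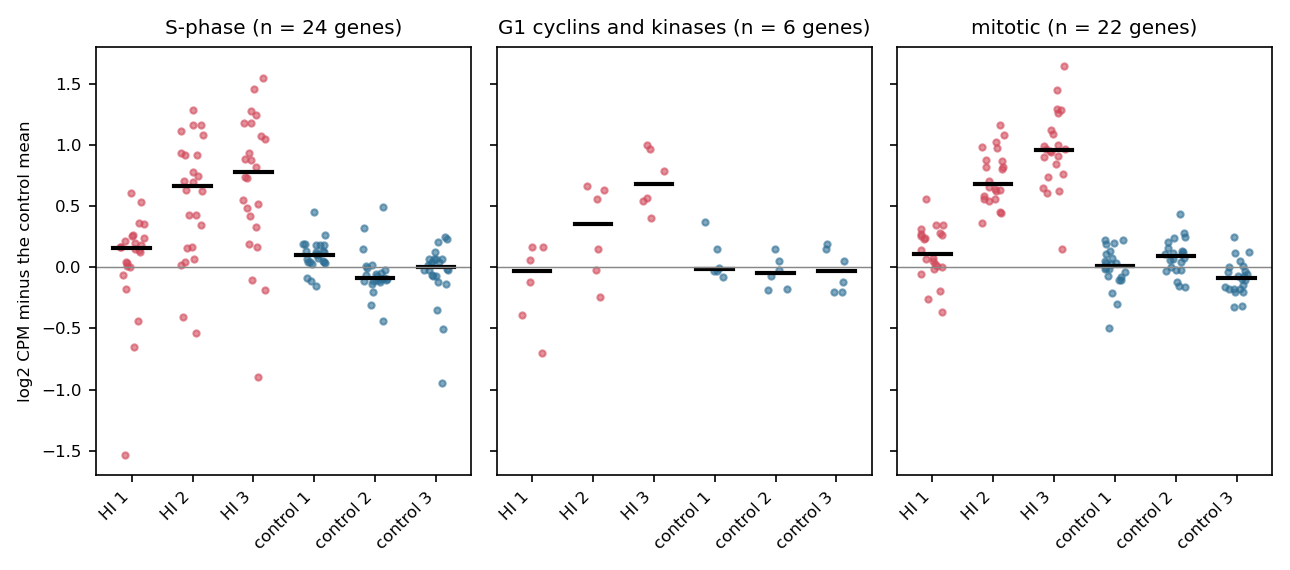
Log2 CPM of every member minus its control mean (vertical axis) in each library, HI libraries at the left and controls at the right, in panels for S-phase, G1 and mitotic genes; points are genes and black bars the median. HI 1 lies near the controls, with S-phase and mitotic medians of 0.16 and 0.11, and HI 3 highest, with 0.78 and 0.96.

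Genes of the same pathways outside the 52 also had positive medians. By edgeR 37.5% of the other replication genes and 34.6% of the other mitotic genes had an unadjusted p below 0.05. That is near the 36.5% of all genes and below the 51.9% of the members. The HI libraries lay above all 3 controls for 43.8% and 26.9% of these genes, in the same order, against 21.5% of all genes. Of 48 other replication genes 3 rose and 1 fell (6.25% and 2.08%), against 6.83% and 7.04% of all genes. Their median log2 fold change was 0.34. Lig1, the ligase that joins Okazaki fragments, rose to 67.5, 70.9 and 66.3 CPM in HI 1, 2 and 3, against 48.8, 46.2 and 43.5 CPM in controls 1, 2 and 3 (0.56 ± 0.09, edgeR adjusted p = 0.0238). Its HI libraries were level, unlike those of most members, and its reads are in part shared with similar genes. Wdhd1, which ties the helicase to the polymerase, rose 1.80-fold, and Orc1, of the origin recognition complex, rose 2.95-fold, with 0.674 to 1.18 CPM in the controls. Prim1, the primase that works with Pola1, fell to 0.714 of the control level (-0.49 ± 0.12, edgeR adjusted p = 0.0412). Of 52 other mitotic genes with a row 1 rose and 0 fell, with a median of 0.45 and 18 at an unadjusted p below 0.05 by edgeR. That gene was Gtse1, a microtubule-associated protein of G2, at 11.2, 24.5 and 29.2 CPM in HI 1, 2 and 3, and 7.42, 8.84 and 7.71 CPM in controls 1, 2 and 3 (1.44 ± 0.35, edgeR adjusted p = 0.0444).

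Regulators upstream of the members included a brake and an activator that both rose. Of 16 tested CDK inhibitors, pocket proteins and other E2F factors 3 rose (18.8%) and 0 fell, against 6.83% and 7.04% of all genes. Their median log2 fold change was 0.10, with 11 positive and 5 negative. By edgeR 5 of the 16 (31.2%) had an unadjusted p below 0.05, against 36.5% of all genes. Cdkn1a, the CDK inhibitor p21, rose to 24.8, 42.9 and 53.7 CPM in HI 1, 2 and 3, against 13.1, 9.13 and 9.36 CPM in controls 1, 2 and 3 (1.94 ± 0.31, edgeR adjusted p = 0.0234). E2f2, an activating E2F factor, rose to 6.82, 5.78 and 6.72 CPM in HI 1, 2 and 3, against 2.80, 2.87 and 2.25 CPM in controls 1, 2 and 3 (1.28 ± 0.23, edgeR adjusted p = 0.0258). The repressor E2f6 rose 1.49-fold. Both E2f2 and E2f6 stood clear of the controls in HI 1 as in the other HI libraries. The RB-family genes Rb1 and Rbl2 and the CDK inhibitor Cdkn1b gave differences of 0.05, -0.11 and -0.06 in log2, none past the threshold.

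Among markers of other cell types that can divide, those of microglia and reactive astrocytes mostly rose, and those of endothelium mostly did not pass. Of 14 microglia markers 12 rose (85.7%) and 0 fell, where 6.83% of all genes were called higher and 7.04% lower. Their summed level was 382 to 650.0 CPM in HI and 153 to 222 CPM in control, with 0 of the 14 at 0 reads in any library. C1qc, a chain of complement C1q, measured 37.2, 53.9 and 70.8 CPM in HI 1, 2 and 3, and 6.13, 7.14 and 8.46 CPM in controls 1, 2 and 3. Of 9 tested reactive astrocyte markers 7 rose (77.8%) and 0 fell, with sums of 1445 to 3912 CPM in HI and 235 to 274 CPM in control. Of 9 tested endothelial markers 1 rose (11.1%), Cdh5 of the vessel junctions, and 0 fell. That share rests on 1 gene and lies near the 6.83% of all genes called higher. The endothelial markers summed to 203, 355 and 441 CPM in HI 1, 2 and 3, and 185, 249 and 241 CPM in controls 1, 2 and 3. Like the members, the endothelial markers stood near the controls in HI 1 and above them in HI 2 and HI 3. HI 1 was the lowest HI library for 100% of endothelial markers, against 42.1% of all genes. That order was not particular to them: it held for 100% of choroid plexus, 92.9% of microglia and 88.9% of reactive astrocyte markers. The part of these cells in the result was not tested.

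Lists for other dividing populations held calls in both directions, where 6.83% of all genes were called higher and 7.04% lower. Of 9 oligodendrocyte precursor markers 0 rose and 1 fell, the sialidase Neu4 (0.578 of the control level, with shared reads), and their sums were 1441 to 1632 CPM in HI and 1416 to 2259 CPM in control. Of 12 neural progenitor markers Nes, the intermediate filament of progenitors and reactive glia, rose 2.13-fold, while Dcx and Tubb3 of young neurons fell to 0.368 and 0.390 of the control level. Of the 12 genes 8 had a positive and 4 a negative log2 fold change, with a median of 0.32. By edgeR 8.33% were called higher and 16.7% lower. An unadjusted p below 0.05 was reached by 58.3%, against 36.5% of all genes. The HI libraries lay above all 3 controls for 4 of the 12 (33.3%) and below them for 3 (25%). Among all genes these shares were 21.5% and 20.8%. Sox2, Fabp7 and Dlx1, which mark progenitors, lay above all 3 controls in every HI library, with log2 fold changes of 0.64, 0.76 and 0.85 that missed the threshold. The sum over the list, 2014 to 2625 CPM in HI and 2816 to 4695 CPM in control, is in the controls mostly that of Tubb3 and Dcx. Among cerebellar granule precursor markers 0 of 8 tested genes rose and 1 fell, Neurod1, and the defining factor Atoh1 had at most 2 reads in any library. Blood leukocyte markers were nearly absent: 9 of 11 stayed under 10 reads in each library, and Cd3g, Cd3d and Cd3e of T cells had at most 1. The single tested member of that list, Ncf1 of phagocytes, rose 4.33-fold, with shared reads. The marker lists for choroid plexus (0 of 9 tested genes called by edgeR, 2 at an unadjusted p below 0.05) and cortical projection neurons (0 higher and 5 lower of 10) describe the tissue sampled.

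**Figure D5:**
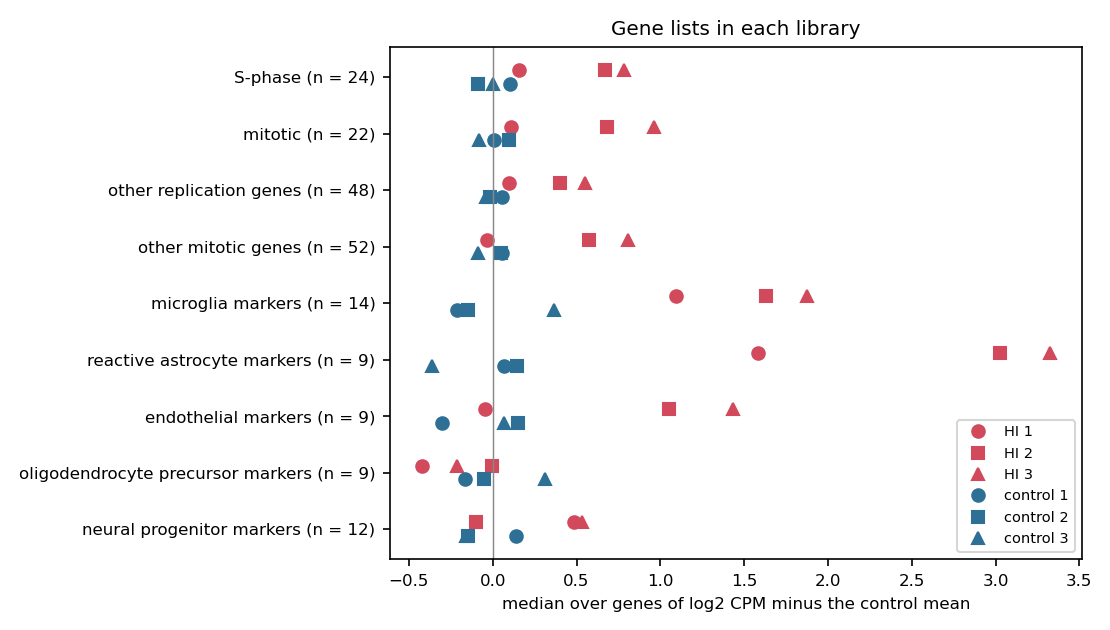
Median over genes of log2 CPM minus the control mean (horizontal axis) for 9 gene lists down the page, with HI libraries in red above controls in blue and marker shapes for replicate numbers. Microglia and reactive astrocyte markers lie to the right in all 3 HI libraries, whereas S-phase, mitotic and endothelial genes do so in HI 2 and HI 3 only, with HI 1 beside the controls.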

How the data were processed

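Per the labels' protocols, brain RNA was extracted with TRIzol and libraries came from a SMARTER mRNA-Seq kit. HISAT2 2.1.0, SAMtools 1.10, StringTie 2.2.1 and the assembly Rnor 6.0 were used, per the submitters' processing notes; how reads were counted, and with which strand setting, is not given in the sources used here. Values are estimated counts as deposited by the authors, without scaling, for 19382 genes. Entries that are not whole to within 1e-09 (2410 genes, 2 of them members, Gins2 and Ccnb2) are taken as shared reads. Counts were rounded, filtered with filterByExpr (minimum count 10), scaled by TMM and tested two-sided in edgeR 4.0.16 under R 4.3.3 (quasi-likelihood F test, no covariate), with Benjamini-Hochberg adjustment across the 14959 genes that passed and a threshold of 0.05. The common biological coefficient of variation was 27.5%. SEs were derived from the F statistic, and per-library log2 CPM used a prior count of 0.5. Columns were matched to samples by name (that of control 1 lacks a letter). The fit was tested on simulated data.

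The members and lists were chosen with earlier results of these data known. Values in every library are given for members past the threshold and for the 2 with the smallest p in each role; Mcm2, Mcm4, Tyms and Cdk1 were added after their values were seen, as were Rb1, Rbl2, Cdkn1b, Sox2, Fabp7, Dlx1, Atoh1 and the Cd3 genes. From each list up to 4 called genes, else up to 2, were eligible. Promoters came from RefSeq windows of GRCr8, matched by gene number; no coordinate was converted. Alternatives were DESeq2 size factors, upper quartiles and total counts as scaling, no filter, at least 1 CPM in 3 libraries, DESeq2 1.42.0, limma-voom (limma 3.58.1), a replicate block, each library left out, and, chosen after seeing the data, libraries with or without Y-linked reads.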

Additional observations from a re-analysis of the deposited data

How the results depend on the processing

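With all 6 libraries, the S-phase and mitotic medians stayed positive under every scaling, filter and tool tried, and they moved by less than the SD between HI libraries, also with each library left out. The numbers of calls did not hold. The numbers for all genes, members, S-phase and mitotic members were 2074, 3, 2 and 1 by edgeR, 4200, 17, 10 and 7 by DESeq2, and 1371, 0, 0 and 0 by limma-voom, where 22 members had an unadjusted p below 0.05. Members, S-phase and mitotic members called numbered 16, 10 and 6 with total counts, 7, 5 and 2 with upper-quartile scaling, and 1, 1 and 0 without a filter. Leaving out each library gave 0 to 3689 genes, 0 to 35 members, 0 to 15 S-phase and 0 to 17 mitotic members by edgeR, with 13 to 42 members at an unadjusted p below 0.05. The replicate block gave 0 members, 0 S-phase and 0 mitotic (21 members at an unadjusted p below 0.05); same-numbered libraries had correlated deviations of 0.25, 0.06 and -0.13, and HI 1 and HI 2 correlated best with their own number but HI 3 with control 2 (0.298), so the numbers were not taken to pair the libraries. Libraries with Y-linked reads alone gave 632 genes and 0 members, 0 S-phase and 0 mitotic, with 28 members at an unadjusted p below 0.05. Those without such reads gave 1364 genes, 1 member, 1 S-phase and 0 mitotic, with medians of 0.16 and 0.077 and a difference of 0.080; there Pcna (-0.0034), Rfc4 (-0.0037), Ung (-0.039), Ccnd1 (-0.056) and Top2a (-0.086) turned negative. E2f1 turned positive (0.59) with Y-linked reads alone, and Rfc4 negative without control 2 (-0.016 to 0.090 over the omitted libraries). These values are log2 fold changes, and the cause was not tested. Why few members passed was not tested; no member had fewer than 31 reads in a library.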
